A study of Mus musculus with 12 samples.

Results

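The mouse Ifi200 family of interferon-inducible DNA-binding proteins was followed through 12 RNA-seq libraries of bone marrow-derived macrophages (BMDMs). The 9 members (Ifi202b, Ifi203, Ifi204, Ifi205, Pyhin1, Mnda, Pydc4, Pydc3 and Aim2) were taken by symbol from the 14098 genes of the deposited table, and all 9 passed the filter for testing (1 TPM or more in 2 or more libraries), as did 11194 genes in all. The family was chosen on its measured values, because Ifi202b differed between libraries of the same group, so the levels of Ifi202b are given as a description and were not tested, and counts of tested members are out of the other 8. Ifi205, Pydc4 and Pydc3 stood under 1 TPM in each IL-4 and WT stiff library and passed the filter only through soft and KO stiff libraries, where they were higher. The calls and p-values of these genes in any fit, and counts and medians over the 8 members, are therefore a description and support nothing. TPM (transcripts scaled to a common total) divides reads by gene length and scales every library to a total of 1000000, which allows levels of different genes to be set side by side. It keeps no read counts, so the depth is unknown and no counting error can be given.

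BMDMs came from male and female C57Bl/6 mice of 8 to 10 weeks that were wild type (WT) or lacked the kinase CaMKK2 throughout the body (KO, Camkk2-/-). They were embedded in a 3D collagen and hyaluronic acid hydrogel and kept in the soft gel, in the soft gel with the cytokine IL-4, or in a gel stiffened with light 24 h after embedding, and were cultured for a further 48 h. This gives 6 groups of 2 libraries, named WT soft, WT soft+IL-4, WT stiff, KO soft, KO soft+IL-4 and KO stiff, with no IL-4 in the stiff gels. Stiffening used ultraviolet light and a photoinitiator, which the methods of the study describe for the stiff gels and not for the soft ones, along with a higher collagen content, so stiffness and these treatments cannot be told apart here. The methods of the study call the 2 libraries of a group biological replicates, but which animals gave which library is not given in the sources used here. The p-values rest on the spread between the 2 libraries within a group, pooled over all 6 groups, and not on the groups compared alone. In bulk RNA, fewer cells of a type and less RNA per cell cannot be told apart.

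The deleted gene went against the label in 3 libraries. Camkk2 stood at 23.3 to 44.2 TPM in 5 of the 6 libraries labelled WT and at 8.54 to 11.5 TPM in 4 of the 6 labelled KO. The library labelled WT soft 2 had 11.7 TPM, and the libraries labelled KO soft 1 and KO stiff 1 had 46.7 and 37.7 TPM. A limit of 20 TPM separates 7 libraries from 5. The nearest libraries to it are WT stiff 1 at 23.3 TPM and the library labelled WT soft 2 at 11.7 TPM. All 12 libraries were kept in their labelled groups, and each comparison is also given without these 3 libraries, which leaves 1 library in WT soft, KO soft and KO stiff, assumed to vary like the other groups. Libraries numbered 1 listed more genes at 0 TPM (10.7% to 13.4% of the table) than those numbered 2 (5.90% to 7.54%). The correlation of log2 levels across genes within a group ran from 0.968 in WT stiff to 0.994 in KO soft+IL-4.

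Macrophage identity was checked with 8 markers, all of them tested, which summed to 23570 to 57980 TPM. This sum was 51480 to 57980 TPM in the 4 soft libraries, 45980 and 48590 TPM in KO stiff, 23570 to 25560 TPM with IL-4 and, for WT stiff, 23620 and 24710 TPM, so it moved with the same groups as several family members, and its part in their differences was not tested. Markers of other cells were low in each library. The sums were 10.7 to 26.6 TPM for neutrophils, 5.15 to 22.0 TPM for dendritic cells, 0.657 to 4.33 TPM for B cells, 0.358 to 2.75 TPM for mast cells and basophils, 0 to 1.61 TPM for T and NK cells and 0.183 to 0.809 TPM for fibroblasts. The dendritic cell sum was 5.15 and 7.73 TPM in WT soft, 11.4 and 7.68 TPM in KO soft and 9.22 and 8.75 TPM in KO stiff. It was 11.3 to 14.9 TPM in the 4 IL-4 libraries and 22.0 and 13.9 TPM in WT stiff, so it was mostly higher where several members were lower, and its part in their differences was not tested. The markers Ly6g and Camp (neutrophils), Ebf1 (B cells), Lum (fibroblasts) and Cd3e, Cd3g, Trac and Ncr1 (T and NK cells) were not analysed here, so the T and NK sum rests on 4 of 8 markers.

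Proteins of this family carry a DNA-binding HIN domain, a pyrin domain that assembles with other pyrin domains, or both. AIM2 binds double-stranded DNA in the cytosol and recruits the adaptor ASC and caspase-1, which mature IL-1β and IL-18. The product of Ifi202b has HIN domains without a pyrin domain and holds AIM2 back, and Ifi204 is the mouse gene usually set beside human IFI16, a DNA sensor upstream of STING. Several members are interferon-stimulated genes in macrophages, and Ifi202b is known for levels that differ between inbred mouse strains.

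The members lie together at the distal end of chromosome 1, within 680932 bases (chr1:173350879-174031810, GRCm38). Aim2 is the first gene of the run and Ifi205 the last, and 6 members are on the minus strand and 3 on the plus strand. Ifi202b is at chr1:173962568-173982744 on the minus strand, between Ifi203 and Ifi205, while Camkk2 is on chromosome 5 (chr5:122731170-122779409). Of the symbols in the table, Pyhin1, Mnda, Pydc4 and Pydc3 are listed in RefSeq as Ifi209, Ifi211, Ifi213 and Ifi208. The genes are close copies in part. Of the stretches of 31 bases in the GENCODE transcripts of Mnda, 78.9% also occur in another gene, most often in Ifi205 (49.5%). The share was 47.2% for Pyhin1, 34.0% for both Ifi204 and Pydc3, 26.5% for Pydc4, 22.1% for Ifi205 and 21.6% for Ifi203. For Pyhin1 nearly all of it was with Ifi214 (46.8%) and for Ifi203 most was with Ifi203-ps (15.9%), neither of them a member. How reads were divided between these genes and their copies is therefore uncertain. Ifi202b shares 1.20% and Aim2 4.89% of their stretches, so their levels rest largely on sequence of their own.

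RefSeq start-site windows of 300 bases (250 before and 50 after the start, GRCm38.p6) were at hand for 8 of the 9 members, Ifi204 being the exception. They were searched on both strands for the core of the interferon-stimulated response element, GAAANNGAA, which occurs in 8.56% of the 32851 windows of all genes. Windows of 5 members held it (Ifi203, Ifi205, Mnda, Pydc4 and Pydc3), and those of Ifi202b, Pyhin1 and Aim2 did not. Ifi203 has 2 windows, of which 1 held the core, and the window of Ifi205 held a further copy after the start. The gamma-activated site TTCNNNGAA, present in 8.30% of all windows, was found only in that of Ifi202b, 148 bases before the start. The stretches around these motifs are shown because the members that share one also share much of the sequence beside it. Capitals mark GAAANNGAA in the first 5 and TTCNNNGAA in the last.
Mnda (chr1:173913055-173913103, minus strand, 37 bases before the start): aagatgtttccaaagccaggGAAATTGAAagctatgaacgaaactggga
Ifi205 (chr1:174031861-174031909, minus strand, 134 bases before the start): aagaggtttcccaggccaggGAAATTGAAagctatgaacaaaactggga
Ifi203 (chr1:173942499-173942547, minus strand, 35 bases before the start): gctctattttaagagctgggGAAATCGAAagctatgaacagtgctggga
Pydc4 (chr1:173599317-173599365, minus strand, 73 bases before the start): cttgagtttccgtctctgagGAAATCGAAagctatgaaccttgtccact
Pydc3 (chr1:173673587-173673635, plus strand, 58 bases before the start): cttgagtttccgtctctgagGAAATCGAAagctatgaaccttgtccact
Ifi202b (chr1:173982964-173983012, minus strand, 148 bases before the start): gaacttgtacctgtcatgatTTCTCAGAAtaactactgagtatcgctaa
The stretches of Pydc4 and Pydc3 are the same 49 bases, and all 5 with GAAANNGAA continue with the same bases agctatgaac. A match is a description of the letters and not a shown binding site.

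Ifi202b was either nearly absent or among the highest members, depending on the library. In the soft gel it stood at 0.321 TPM in WT soft 1, 67.7 TPM in the library labelled WT soft 2, 0 TPM in the library labelled KO soft 1 and 78.4 TPM in KO soft 2. In the stiff gel it stood at 34.9 and 28.9 TPM in WT stiff, 1.34 TPM in the library labelled KO stiff 1 and 79.4 TPM in KO stiff 2. With IL-4 it stood at 2.15 and 2.03 TPM in WT and at 80.4 and 82.5 TPM in KO. Both libraries of a group therefore lay close together in WT soft+IL-4, WT stiff and KO soft+IL-4, and far apart in WT soft, KO soft and KO stiff, the groups that hold the 3 libraries at odds with their label. On the log2(TPM + 1) scale both libraries differed by 5.70 in WT soft, by 6.31 in KO soft and by 5.10 in KO stiff, against medians over all genes of 0.15, 0.17 and 0.14, and these differences ranked 3, 2 and 4 among the 11194 genes. These are the values that chose the family.

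Ordered by Camkk2, the levels of Ifi202b fell into 3 ranges. The 5 libraries with 29.8 to 46.7 TPM of Camkk2 had 0 to 2.15 TPM of Ifi202b. WT stiff, with 23.3 and 23.7 TPM of Camkk2, had the intermediate 28.9 and 34.9 TPM. The 5 libraries under 20 TPM of Camkk2 had 67.7 to 82.5 TPM of Ifi202b. By label, the ranges overlapped, at 0.321 to 67.7 TPM over the 6 libraries labelled WT and 0 to 82.5 TPM over the 6 labelled KO. The low and the high range both hold libraries numbered 1 and 2. Ifi202b made up 0% to 1.14% of the summed TPM of the family in the low range, 14.1% and 23.4% in WT stiff and 24.3% to 35.2% in the high range. It was the highest member in KO soft+IL-4 1 and 2 and KO stiff 2, and Ifi204 was the highest in the other 9 libraries. The sum over the family ran from 150 TPM in WT stiff 1 to 325 TPM in WT soft 1.

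**Figure D1:**
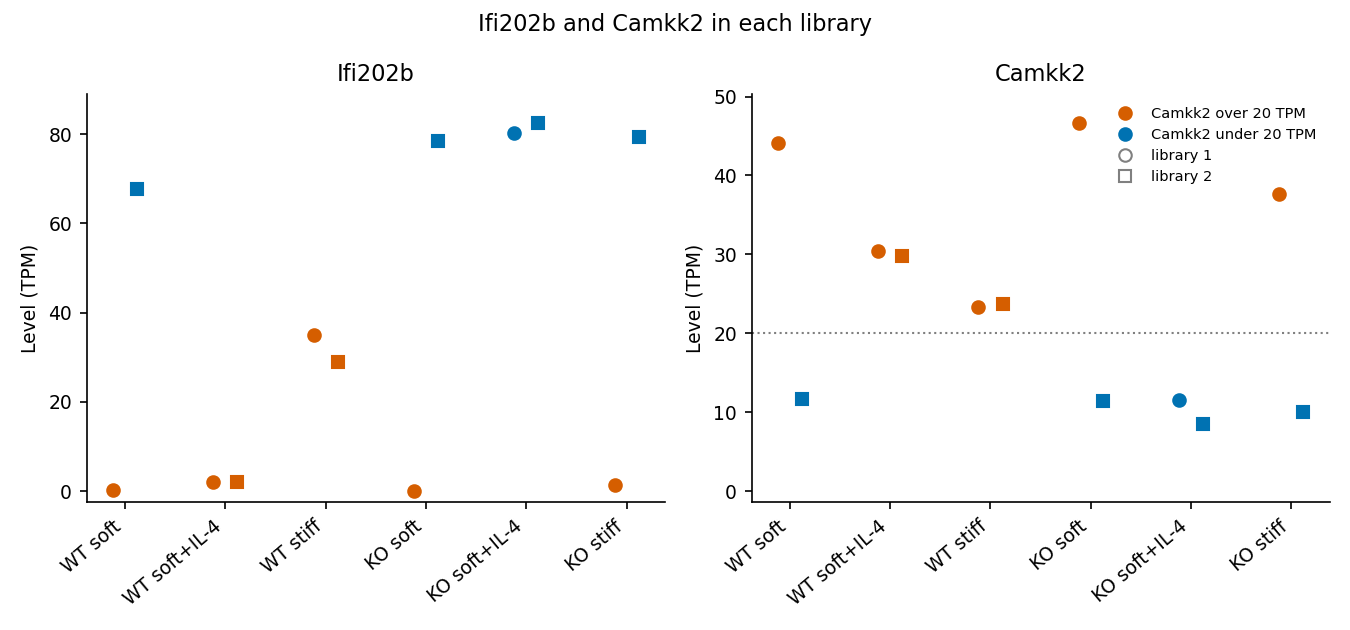
Levels of Ifi202b (left) and Camkk2 (right) in TPM for each library by labelled group, with circles for library 1, squares for library 2, orange for Camkk2 over 20 TPM and blue for Camkk2 under 20 TPM. The blue libraries hold 67.7 to 82.5 TPM of Ifi202b, WT stiff holds 28.9 and 34.9 TPM, and the other orange libraries hold at most 2.15 TPM.

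A set of 5 further members moved the other way from Ifi202b between the libraries of the same label. Mnda, a pyrin and HIN protein, stood at 85.8 TPM in WT soft 1, 94.1 TPM in the library labelled KO soft 1 and 71.6 TPM in the library labelled KO stiff 1. The library labelled WT soft 2 had 36.8 TPM, KO soft 2 had 39.7 TPM and KO stiff 2 had 37.6 TPM. The 3 libraries of high Camkk2 were thus all above the 3 of low Camkk2. Pyhin1, another pyrin and HIN protein, ran from 32.8 to 40.5 TPM in the first 3 libraries and from 15.1 to 17.3 TPM in the second 3. Ifi204 ran from 112 to 126 TPM and from 72.6 to 81.5 TPM. The low members Pydc3 and Pydc4, pyrin domain genes, ran from 3.67 to 5.54 TPM against 1.03 to 1.67 TPM and from 2.52 to 3.20 TPM against 0.729 to 1.10 TPM. No range of these 5 members overlapped between both sets of 3 libraries, where 23.3% of all genes did not overlap either, and nothing is read from this count.

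Ifi203, the only other member that stood on the side of Ifi202b, had 31.7, 36.7 and 36.2 TPM in WT soft 1 and the libraries labelled KO soft 1 and KO stiff 1, and 49.1, 50.1 and 46.4 TPM in the library labelled WT soft 2, KO soft 2 and KO stiff 2. Ifi205 overlapped between the same sets, at 2.67 to 4.13 TPM and 2.12 to 3.48 TPM. Aim2 overlapped as well, at 28.1 to 31.8 TPM and 30.1 to 31.9 TPM. Both sets were defined by measured Camkk2 and share their group labels, so their differences are given without a test. Each set of 3 is also a set of libraries of 1 number (libraries 1 and libraries 2), and the numbers go with the share of genes listed at 0. Libraries of like Camkk2 within 1 group lay close together in some groups and not in others. In WT soft+IL-4, Mnda stood at 42.8 and 49.2 TPM and Pyhin1 at 17.2 and 17.6 TPM. In WT stiff, with 23.3 and 23.7 TPM of Camkk2, Mnda stood at 18.4 and 38.1 TPM, Pyhin1 at 7.18 and 14.7 TPM and Ifi204 at 49.1 and 80.8 TPM.

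**Figure D2:**
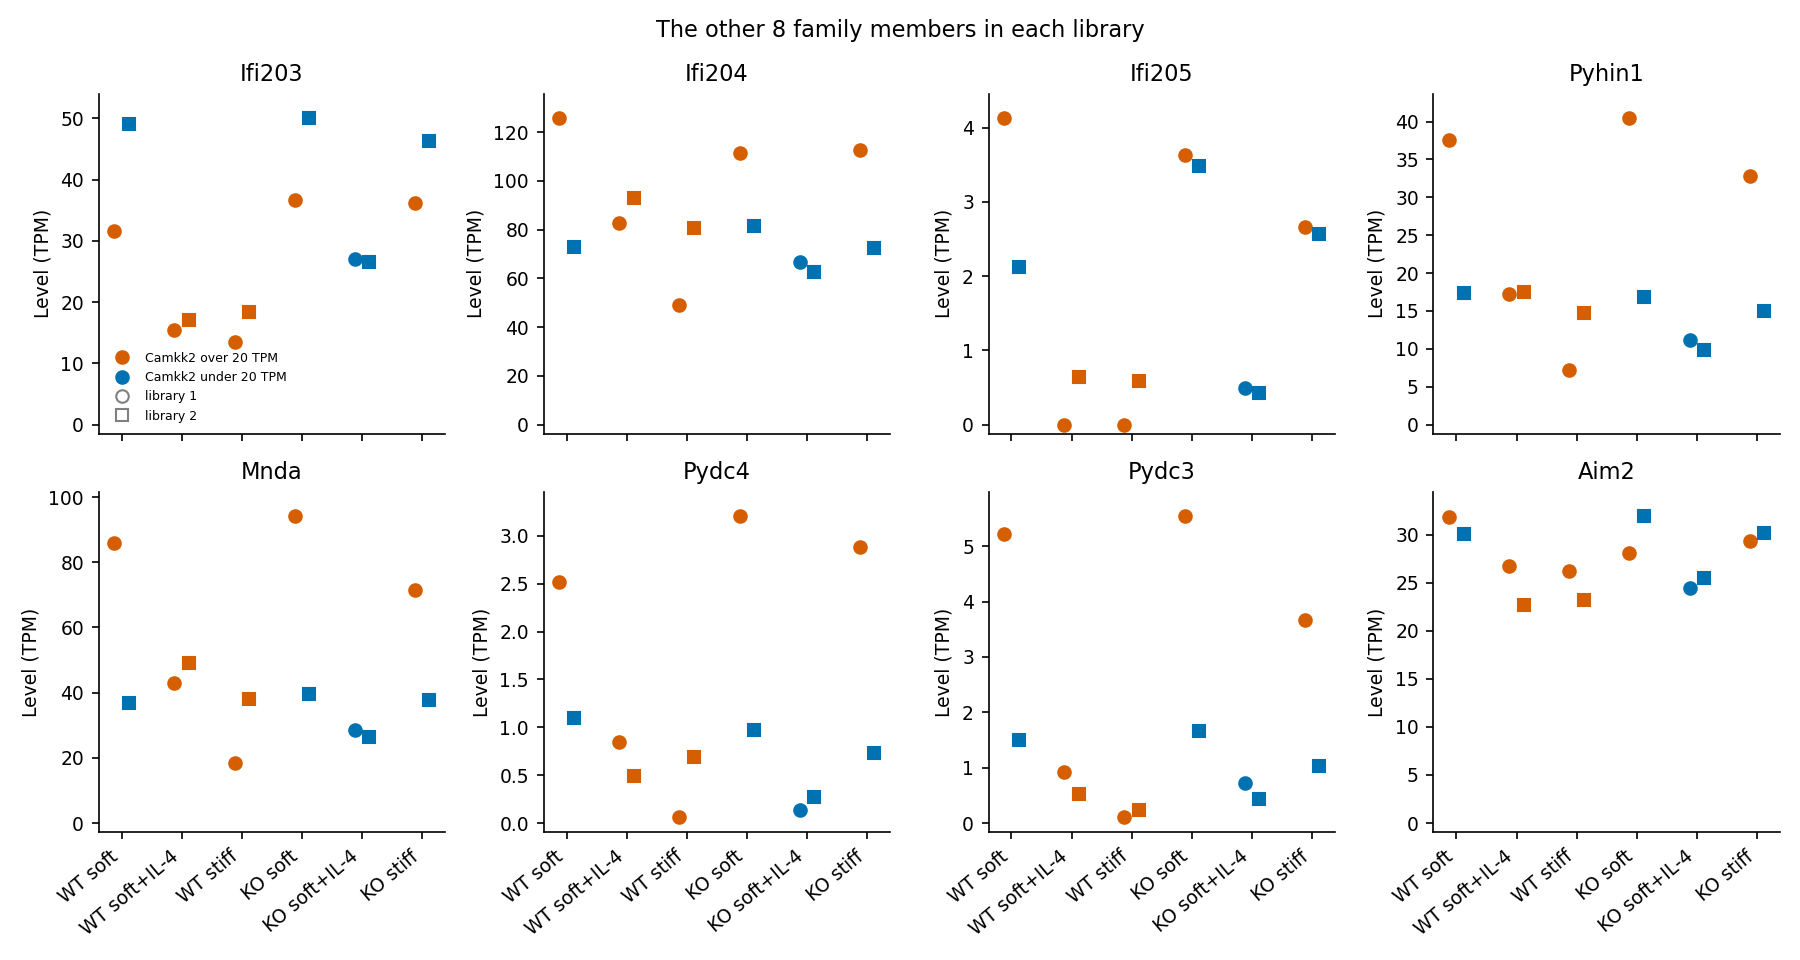
Levels in TPM of the 8 members other than Ifi202b in each library by labelled group, with circles for library 1, squares for library 2, orange for Camkk2 over 20 TPM and blue for Camkk2 under 20 TPM. In WT soft, KO soft and KO stiff the orange library lies above the blue one for Mnda, Pyhin1, Ifi204, Pydc3 and Pydc4 and below it for Ifi203, and Aim2 stays between 22.7 and 31.9 TPM.

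Within the soft gel with IL-4, where no Camkk2 level went against a label, the 2 genotypes could be set side by side. Ifi203 stood at 27.0 and 26.5 TPM in KO and at 15.5 and 17.0 TPM in WT, which gives 0.69 ± 0.23 (log2 fold change ± SE, adjusted p = 1.0). Mnda stood at 28.6 and 26.3 TPM in KO and 42.8 and 49.2 TPM in WT, a log2 fold change of -0.72 ± 0.52 (adjusted p = 1.0). Pyhin1 (11.2 and 9.83 TPM against 17.2 and 17.6 TPM), Ifi204 (66.6 and 62.7 TPM against 82.8 and 92.8 TPM) and Pydc4 (0.135 and 0.272 TPM against 0.844 and 0.487 TPM) were lower in both KO libraries as well. The groups did not overlap for 5 of the 8 members, 1 higher and 4 lower in KO, where 38.9% of all genes did not overlap either. By limma, 0 of the 8 members and 0.0% of all genes were called (adjusted p under 0.05 and at least 2-fold), with 1 member, Ifi203, and 233 genes at an unadjusted p under 0.05. The SE and p-values pool the spread of all 6 groups, including the 3 that mix high and low Camkk2. With only the groups compared in the fit, 0 members and 19 genes were called. Without the 3 libraries the log2 fold changes are the same and 0 members were called.

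**Figure D3:**
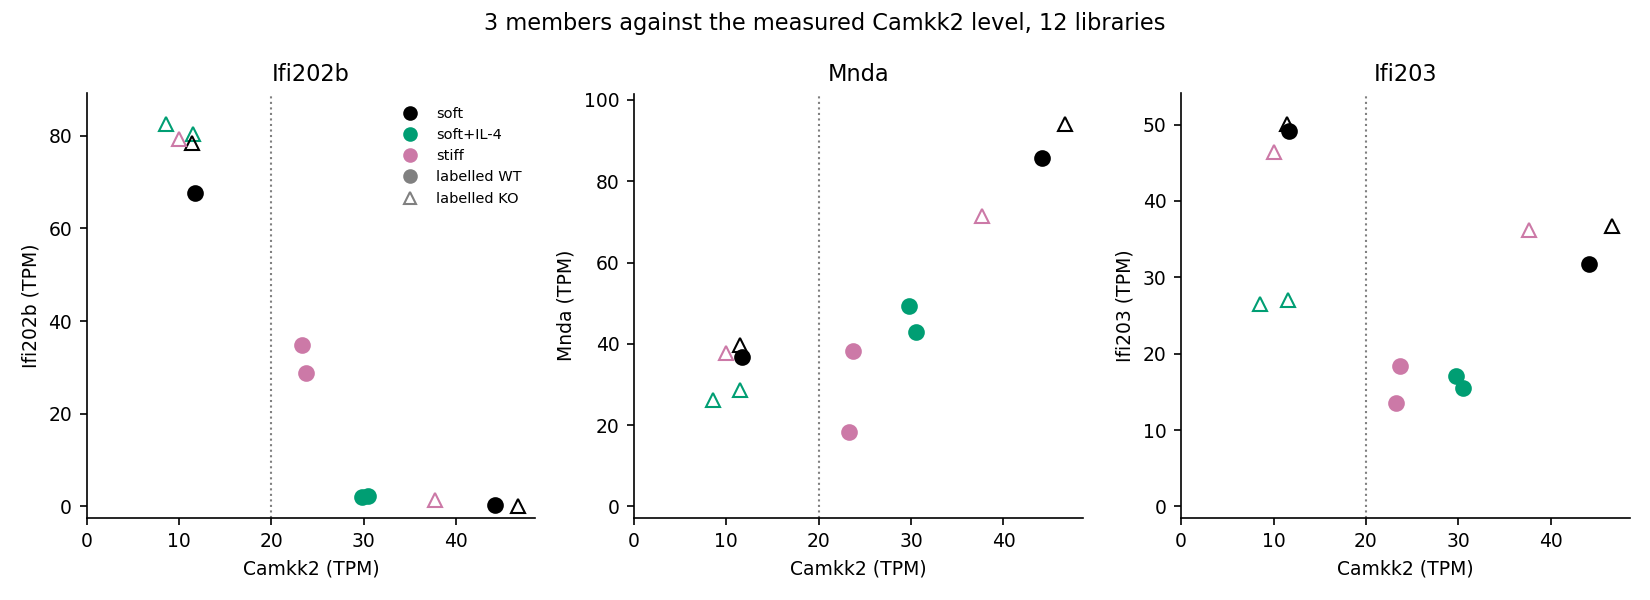
Levels of Ifi202b, Mnda and Ifi203 (TPM) against Camkk2 (TPM) in the 12 libraries, with black for soft, green for soft with IL-4 and pink for stiff, filled circles for libraries labelled WT and open triangles for those labelled KO. Ifi202b stands at 67.7 to 82.5 TPM under a Camkk2 level of 20 TPM and at no more than 2.15 TPM in the 5 libraries with the most Camkk2, Mnda is highest where Camkk2 is highest, and Ifi203 is lower in the IL-4 and WT stiff libraries than in the others.

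In WT, 2 members were called lower with IL-4 in the soft gel. Without IL-4, Ifi203 had 31.7 TPM in WT soft 1, and the library labelled WT soft 2 had 49.1 TPM, which compares with 15.5 and 17.0 TPM with IL-4. The groups did not overlap, and the log2 fold change was -1.23 ± 0.23 (SE, limma, adjusted p = 0.0098). Ifi205 stood at 4.13 and 2.12 TPM without IL-4, and with IL-4 it was listed at 0 in library 1 and had 0.643 TPM in library 2. Its log2 fold change was -1.64 ± 0.34 (adjusted p = 0.014). This call is a description, as Ifi205 passed the filter only through libraries without IL-4. Of the 8 members tested, 2 were called, both lower, against 3.76% of all genes called in either direction. Pydc3 (5.22 and 1.503 TPM against 0.925 and 0.528 TPM) had a log2 fold change of -1.20 ± 0.55 (adjusted p = 0.21). All 8 log2 fold changes were negative, with a median of -0.62 against -0.05 over all genes, and the smallest was that of Ifi204 at -0.13 ± 0.31. The call of Ifi203 was lost without the library labelled WT soft 2 (-0.92, adjusted p = 0.078), without WT soft+IL-4 1 (-1.17, adjusted p = 0.084) or without WT soft+IL-4 2 (-1.30, adjusted p = 0.051). That of Ifi205 was lost without WT soft 1 or without WT soft+IL-4 1 (-1.29 in both, adjusted p = 0.11 and 0.12). Without the 3 libraries, 0 members were called, at -0.92 ± 0.20 for Ifi203 (adjusted p = 0.12) and -2.0 ± 0.46 for Ifi205 (adjusted p = 0.13).

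In KO, Ifi205 was called lower with IL-4, a description, since it passed the filter only through libraries without IL-4. It stood at 3.63 TPM in the library labelled KO soft 1 and 3.48 TPM in KO soft 2, and at 0.492 and 0.433 TPM with IL-4. The log2 fold change was -1.64 ± 0.34 (adjusted p = 0.015), and 1 of the 8 members was called against 3.65% of all genes. Ifi203 fell short of the threshold, from 36.7 and 50.1 TPM to 27.0 and 26.5 TPM (-0.66 ± 0.23, adjusted p = 0.11). Mnda stood at 94.1 and 39.7 TPM without IL-4 and at 28.6 and 26.3 TPM with it, and Pyhin1 at 40.5 and 16.9 TPM and at 11.2 and 9.83 TPM. Their log2 fold changes were -1.13 ± 0.52 and -1.25 ± 0.51 (adjusted p = 0.22 and 0.17), so neither was called. All 8 values were negative, with a median of -1.19 against -0.05 over all genes. The call of Ifi205 was lost without any 1 of the 4 libraries (-1.61 to -1.67, adjusted p = 0.079 to 0.096) and without the 3 libraries (-1.62 ± 0.46, adjusted p = 0.18), and leaving out the library labelled KO soft 1 took Mnda to -0.52 and Pyhin1 to -0.64.

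The mean of the WT and KO effects of IL-4 does not depend on which soft library carries which label. Its SE and p-value do, as the spread is taken within the labelled groups. By this measure Ifi205 fell by 1.64 ± 0.24 on the log2 scale (adjusted p = 0.0012) and Pydc3 by 1.31 ± 0.39 (adjusted p = 0.039), so 2 of 8 members were called, against 4.35% of all genes. Both passed the filter only through libraries without IL-4, where they were higher, so these 2 calls are a description. Ifi203 (-0.95 ± 0.16, adjusted p = 0.0031) and Aim2 (-0.29 ± 0.08, adjusted p = 0.033) passed the p threshold at less than 2-fold. The groups did not overlap for 5 of 8 members, all lower with IL-4 (Ifi203, Ifi205, Pydc4, Pydc3 and Aim2), where 36.9% of all genes did not overlap. Without the 3 libraries, Ifi205 (-1.81 ± 0.32, adjusted p = 0.032) and Pydc3 (-1.31 ± 0.24, adjusted p = 0.035) were called again. Ifi205 was called without each single library as well. Pydc3 was not called when WT soft 1 (-0.98, adjusted p = 0.13), the library labelled KO soft 1 (-0.98, adjusted p = 0.13) or any 1 of the 4 IL-4 libraries (-1.22 to -1.39, adjusted p = 0.084 to 0.12) was left out. Ifi203 was called without WT soft 1 (-1.10, adjusted p = 0.0024) or the library labelled KO soft 1 (-1.06, adjusted p = 0.0052), and Pydc4 without KO soft 2 (-1.26, adjusted p = 0.043). The interaction of genotype with IL-4 was called for 0 of the 8 members and 0.0% of all genes, with 0 members and 165 genes at an unadjusted p under 0.05, and for 0 members without the 3 libraries.

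In WT, the same members, Ifi203 and Ifi205, were called lower in the stiff gel, with the same soft libraries as the reference. Ifi203 stood at 13.5 and 18.3 TPM in WT stiff against 31.7 TPM in WT soft 1 and 49.1 TPM in the library labelled WT soft 2 (-1.27 ± 0.23, adjusted p = 0.0087). Ifi205 was listed at 0 in WT stiff 1 and had 0.584 TPM in WT stiff 2, against 4.13 and 2.12 TPM (-1.67 ± 0.34, adjusted p = 0.014). Its call is a description, as it passed the filter only through soft and KO stiff libraries. The calls came to 2 of 8 members, both lower, against 3.97% of all genes. Pydc3, at 0.106 and 0.241 TPM against 5.22 and 1.503 TPM, had a log2 fold change of -1.75 ± 0.55 (adjusted p = 0.081). Mnda (18.4 and 38.1 TPM against 85.8 and 36.8 TPM) overlapped between the groups at -1.06 ± 0.52 (adjusted p = 0.26), and Ifi204 (49.1 and 80.8 TPM against 126 and 72.9 TPM) overlapped as well. The other 6 members did not overlap, all lower in the stiff gel, where 42.8% of all genes did not overlap. WT stiff 1 was the lowest of the 12 libraries for Ifi203, Ifi204, Pyhin1, Mnda, Pydc4 and Pydc3. All 8 values were negative, with a median of -1.14 against 0.02 over all genes. The call of Ifi203 was lost without the library labelled WT soft 2 (-0.97, adjusted p = 0.068) and that of Ifi205 without WT soft 1 (-1.31, adjusted p = 0.11). Without the 3 libraries Pydc3 alone was called (-2.41 ± 0.34, adjusted p = 0.042), with Ifi203 at -0.97 ± 0.20 (adjusted p = 0.10) and Ifi205 at -2.03 ± 0.46 (adjusted p = 0.12).

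In KO, the stiff gel gave values close to those of the soft gel. Ifi203 stood at 36.2 TPM in the library labelled KO stiff 1 and 46.4 TPM in KO stiff 2 against 36.7 and 50.1 TPM, and Ifi205 at 2.67 and 2.56 TPM against 3.63 and 3.48 TPM. By limma, 0 of 8 members were called, against 0.0447% of all genes, and 0 members and 295 genes had an unadjusted p under 0.05. The groups did not overlap for 1 member, Ifi205, where 32.3% of all genes did not overlap. The log2 fold changes lay between -0.44 ± 0.55 (Pydc3) and -0.01 ± 0.12 (Aim2), and without the 3 libraries 0 members were called. Averaged over the genotypes, 1 of 8 members was called lower in the stiff gel, Ifi205 (-1.001 ± 0.24, adjusted p = 0.039), against 1.35% of all genes. This call too is a description, because of how Ifi205 passed the filter. That call was lost without the 3 libraries (-1.18 ± 0.35, adjusted p = 0.35) and without any 1 of the libraries of KO soft and KO stiff, WT soft 1 or WT stiff 1 (-0.82 to -1.01).

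In the stiff gel, 2 members were called between the genotypes. Ifi203 was higher in KO stiff, with the 4 values given above not overlapping (1.33 ± 0.23, adjusted p = 0.012), and so was Ifi205 (1.52 ± 0.34, adjusted p = 0.034). The call of Ifi205 is a description, as it passed the filter only through soft and KO stiff libraries. The share called was 2 of 8 members, both higher, against 1.98% of all genes. Pydc3 stood at 3.67 TPM in the library labelled KO stiff 1 and 1.03 TPM in KO stiff 2 against 0.106 and 0.241 TPM in WT stiff (1.39 ± 0.55, adjusted p = 0.22). All 8 values were positive, with a median of 1.00 against -0.02 over all genes. Because the library labelled KO stiff 1 has a Camkk2 level above that of WT stiff, the direction is drawn from a group of mixed Camkk2 levels. Without the 3 libraries, Ifi203 (1.502 ± 0.20, adjusted p = 0.068) and Ifi205 (1.501 ± 0.46, adjusted p = 0.34) kept their sign and 0 members were called. The call of Ifi203 was lost without KO stiff 2 (1.15, adjusted p = 0.11). That of Ifi205 was lost without WT stiff 1 (1.19, adjusted p = 0.089), the library labelled KO stiff 1 (1.501, adjusted p = 0.19) or KO stiff 2 (1.54, adjusted p = 0.16).

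In the soft gel, where each genotype holds 1 library of high and 1 of low Camkk2, all 8 members overlapped between the labels, where 24.7% of all genes did not overlap. The log2 fold changes of KO against WT were between -0.05 ± 0.12 (Aim2) and 0.19 ± 0.34 (Ifi205). By limma, 0 of 8 members and 0.0% of all genes were called, and 0 members and 130 genes had an unadjusted p under 0.05. Without the 3 libraries, which sets KO soft 2 against WT soft 1, the values moved to -1.22 for Pydc3, -1.11 for Pyhin1, -1.09 for Mnda and 0.64 for Ifi203. This sets 1 library of low Camkk2 against 1 of high Camkk2 and is given as a description. The interaction of genotype with stiffness was positive in all 8 members, with a median of 0.93 against -0.02 over all genes. It was called in 0 of the 8 members, against 0.67% of all genes, with 2 members and 1219 genes at an unadjusted p under 0.05. It was 1.21 ± 0.33 for Ifi203 (adjusted p = 0.16) and 1.34 ± 0.48 for Ifi205 (adjusted p = 0.32). Without WT stiff 2, which leaves 1 library in WT stiff, the values were 1.42 for Ifi203 and 1.67 for Ifi205. Without the 3 libraries they were 0.86 and 1.70.

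**Figure D4:**
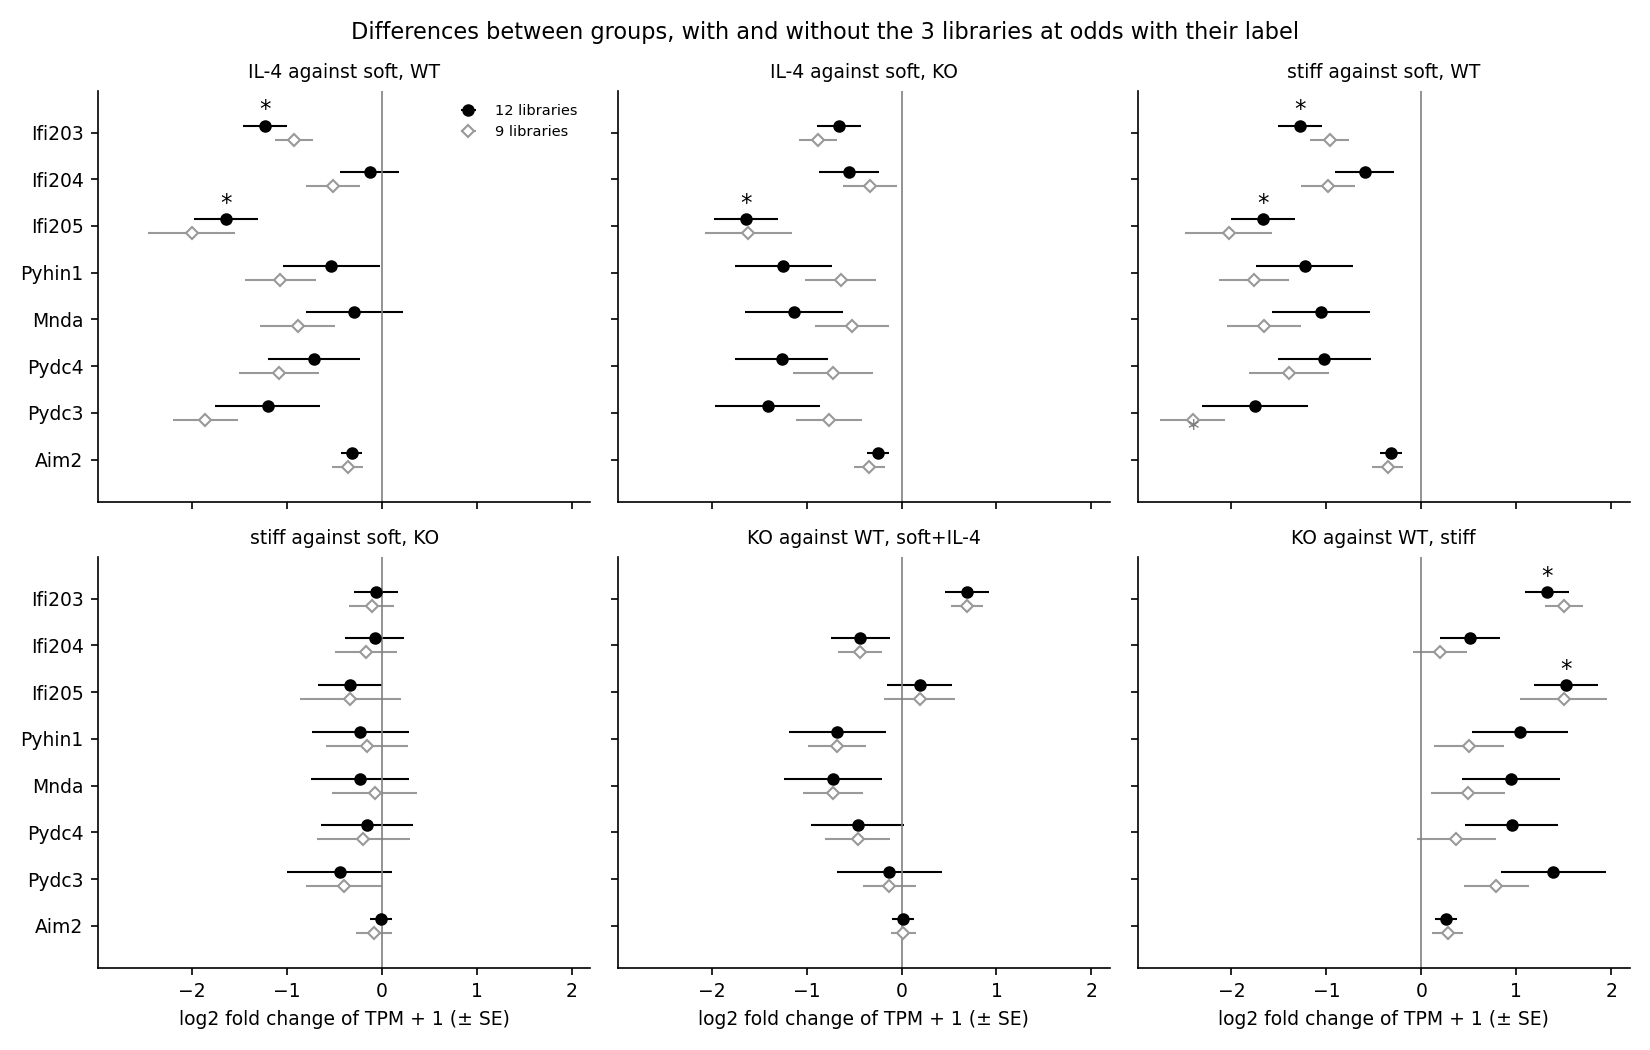
Log2 fold changes of TPM + 1 with their SE for the 8 members other than Ifi202b in 6 comparisons (first group minus second), with black circles for all 12 libraries and grey diamonds for the 9 libraries whose Camkk2 level matched the label. Asterisks mark members called at an adjusted p under 0.05 and at least 2-fold, which are Ifi203 and Ifi205 in WT with IL-4, in WT stiff and in KO against WT stiff, Ifi205 in KO with IL-4, and Pydc3 in WT stiff with 9 libraries.

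Other genes of the locus and of the pathways around the family were followed by lists. Of the other PYHIN genes, 2 were tested, Mndal and AI607873 (Ifi207 in RefSeq). Mndal, which overlaps Mnda and Ifi203 on the same strand, stood at 103.6 and 85.1 TPM in WT soft, 107.9 and 94.7 TPM in KO soft, 53.5 and 50.9 TPM in WT soft+IL-4, 44.2 with 43.0 TPM in KO soft+IL-4, then 32.9 and 47.6 TPM in WT stiff and 94.7 and 81.4 TPM in KO stiff. It was called lower with IL-4 in KO (-1.20 ± 0.17, adjusted p = 0.0023) and lower in WT stiff (-1.23 ± 0.17, adjusted p = 0.0021). In the stiff gel it was higher in KO than in WT (1.13 ± 0.17, adjusted p = 0.0063). None of these calls stood without the 3 libraries at odds with their label, at -1.10, -1.37 and 1.02 (adjusted p = 0.085, 0.054 and 0.17). With the genotypes averaged, Mndal was called lower with IL-4 (-1.02 ± 0.12, limma, adjusted p = 0.00037), and its change was -1.04 without the 3 libraries. AI607873 stood at 37.8 to 115.7 TPM and was not called in any of these comparisons.

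Inflammasome genes, which hold partners of AIM2 as well as other sensors and the cytokines they mature, had 12 members tested. Of these, 2 fell with IL-4 in WT, in KO and with stiffening in WT, and these were Nlrp3, the sensor of another inflammasome, and Il1b, the cytokine precursor. Over all genes, 3.76%, 3.65% and 3.97% were called in these comparisons. Nlrp3 stood at 20.1 and 27.1 TPM in WT soft, 4.49 and 5.43 TPM with IL-4 and, for WT stiff, 12.2 and 5.05 TPM. This gave -2.03 ± 0.31 with IL-4 (adjusted p = 0.0036) and -1.45 ± 0.31 with stiffening (adjusted p = 0.018). Il1b stood at 14.5 and 17.4 TPM in WT soft and at 0.961 and 2.87 TPM in WT stiff (-2.61 ± 0.35, adjusted p = 0.0016). The median over the 12 genes was -0.37 with IL-4 in WT, -0.70 with stiffening in WT and -0.05 with stiffening in KO, where 0 of them and 0.0447% of all genes were called. In the 9 libraries whose Camkk2 level matched the label, none of the calls above stood, with Nlrp3 at -1.83 and -1.24 and Il1b at -2.49. With the genotypes averaged, IL-4 lowered Nlrp3 (-1.95 ± 0.22, limma, adjusted p = 0.00027) and Il1b (-1.63 ± 0.25, adjusted p = 0.0014). Their changes were -1.94 and -1.77 in the 9 libraries.

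Genes of cytosolic DNA sensing beside the family, 11 of them tested, held 1 call with IL-4 in WT and 2 with stiffening in WT, all lower. Over all genes, 3.76% and 3.97% were called in these comparisons. The kinase gene Ikbke stood at 96.6 and 113.4 TPM in WT soft, 44.7 and 43.3 TPM with IL-4 and, for WT stiff, 43.5 and 49.3 TPM (-1.23 ± 0.15 and -1.16 ± 0.15, adjusted p = 0.0011 and 0.0014). Trex1, the cytosolic DNA exonuclease, stood at 176.6 and 155.7 TPM in WT soft and at 57.4 and 100.7 TPM in WT stiff (-1.11 ± 0.22, adjusted p = 0.012). Ikbke was called again without the 3 libraries (-1.12 and -1.05, adjusted p = 0.027 and 0.032) and Trex1 was not (-1.20, adjusted p = 0.17). Of 14 genes of the interferon receptor and its factors, Irf7 fell (-2.08 ± 0.51, adjusted p = 0.030) and Socs1, a feedback inhibitor of cytokine signalling, rose (4.00 ± 0.32, adjusted p = 0.00010) with IL-4 in WT. With stiffening in WT, Socs1 rose as well (3.97 ± 0.32, adjusted p = 9.9e-05) and Irf7 fell (-2.90 ± 0.51, adjusted p = 0.0071). Socs1 was called in both without the 3 libraries (3.47 and 3.44, adjusted p = 0.0044 and 0.0034) and Irf7 in neither (-1.96 and -2.78, adjusted p = 0.32 and 0.18).

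Of 20 interferon-stimulated genes outside the family that were tested, 3 fell with IL-4 in WT, 4 with IL-4 in KO, 11 with stiffening in WT and 0 with stiffening in KO, and 9 were higher in KO than in WT in the stiff gel. Over all genes, 3.76%, 3.65%, 3.97%, 0.0447% and 1.98% were called in these comparisons, in the same order. Ifit3 stood at 103.5 and 67.1 TPM in WT soft, 11.8 and 12.5 TPM with IL-4 and, for WT stiff, 1.21 and 11.9 TPM (-2.68 ± 0.64, adjusted p = 0.028, and -3.98 ± 0.64, adjusted p = 0.0045). In the 9 libraries that matched their label, 0 of the 20 were called in any of these comparisons, with Ifit3 at -2.99 and -4.29 (adjusted p = 0.23 and 0.11). Fewer of all genes were called in those 9 libraries as well. The medians over the list were -1.31 with IL-4 in WT, -2.25 with stiffening in WT and -0.20 with stiffening in KO, against -0.05, 0.02 and -0.01 over all genes. Of the listed genes, Ifi44 followed Ifi202b between libraries of the same label, at 7.78, 5.83 and 6.41 TPM in WT soft 1 and the libraries labelled KO soft 1 and KO stiff 1 and at 72.7, 77.6 and 62.1 TPM in the library labelled WT soft 2, KO soft 2 and KO stiff 2. Ifit1 did not split in this way, at 37.0, 36.6 and 29.8 TPM against 30.4, 30.0 and 26.8 TPM. Xaf1 split as Ifi44 did, at 18.05, 22.9 and 15.9 TPM against 39.05, 40.3 and 34.3 TPM. Others split the opposite way, among them Ifit3 at 103.5, 112.8 and 80.4 TPM against 67.1, 71.3 and 57.5 TPM. Ifit2 did so too, at 57.9, 57.8 and 50.2 TPM against 42.3, 42.7 and 35.8 TPM. The listed genes thus went both ways, and over all genes 23.3% did not overlap between these sets. The genes named for this split were singled out after their values were seen.

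Over the 12 libraries, Ifi202b was set against every other tested gene on the log2(TPM + 1) scale, as a description, since the libraries share gel, label and number. The 5 genes most like it were 1500011B03Rik (Pearson r = 0.96), Clec16a (0.96), Plbd1 (0.95), Gbp2b (0.95), an interferon-inducible GTPase, and Ppp1r37 (0.95). They lie on chromosomes 5, 16, 6, 3 and 7 and not near the family. Gbp2b stood at 0.165 to 2.00 TPM in the 5 libraries of the low range of Ifi202b, 3.61 and 12.8 TPM in WT stiff and 16.3 to 37.9 TPM in the high range. The genes most opposite were Gltp (-0.95), Fam43a (-0.95) and Camkk2 itself (-0.94). 1500011B03Rik (chr5:114808196-114823468) and Gltp (chr5:114669398-114690984) are on the chromosome of Camkk2, in opposite directions of likeness. 1500011B03Rik stood at 11.3 to 20.6 TPM in the low range, 30.3 and 38.4 TPM in WT stiff and 78.2 to 95.5 TPM in the high range.

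Among the members, Mnda, Pyhin1 and Ifi204 ran together (r of 0.96 to 0.99 between pairs), and with Pydc4 they ran from 0.88 to 0.99. Ifi202b had an r of -0.82 with Mnda, -0.80 with Ifi204 and -0.78 with Pyhin1, 0.19 with Ifi203, -0.25 with Ifi205 and -0.05 with Aim2. The non-member most like each was Cp for Ifi203 (0.99), Ptprc for Ifi205 (0.98), Tusc1 for Ifi204 (0.95), Cacna1a for both Pyhin1 (0.97) and Mnda (0.95), Cgnl1 for Pydc4 (0.95), Dcp2 for Pydc3 (0.94) and Usp35 for Aim2 (0.95). Cp, the gene of ceruloplasmin, stood at 5.78 to 12.5 TPM in the soft and KO stiff libraries and at 0.678 to 3.48 TPM in the IL-4 and WT stiff libraries.

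Some neighbours of the family also differed between libraries of the same label, over a smaller range than Ifi202b. On the side of Ifi205, the next tested gene is Fh1 (from base 175600374 of chromosome 1), the gene of fumarate hydratase, at 45.1 to 75.9 TPM. It stood at 45.1, 45.1 and 53.2 TPM in WT soft 1 and the libraries labelled KO soft 1 and KO stiff 1 and at 65.5, 61.2 and 57.9 TPM in the library labelled WT soft 2, KO soft 2 and KO stiff 2. On the side of Aim2, the nearest tested gene is Dusp23, a phosphatase gene, at 8.87 to 41.2 TPM. It stood at 16.4, 15.1 and 23.2 TPM in the first 3 of these libraries and at 8.87, 9.69 and 12.5 TPM in the second 3. Slamf8, a macrophage surface receptor gene, stood at 103.9, 105.7 and 109.7 TPM against 61.9, 62.7 and 76.9 TPM, and Vsig8 at 4.04, 2.98 and 4.48 TPM against 0.918, 1.17 and 1.28 TPM. These 3 genes were thus higher where Ifi202b was lower, and Fh1 was lower there. Beyond Fh1, Kmo (3.35, 2.98 and 2.63 TPM against 4.83, 6.04 and 5.95 TPM) was lower there as well. So was Opn3 (2.825, 2.745 and 3.32 TPM against 4.19, 4.99 and 4.10 TPM). Chml and 4933439K11Rik overlapped. Over all genes, 23.3% did not overlap between these sets, so nothing is read from the split of these neighbours. Cadm3, which overlaps the start of Aim2, had at most 0.516 TPM.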

How the data were processed

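The authors deposited 1 table of TPM values with 14098 genes in 12 libraries. The submitters' processing notes name Trim Galore 0.6.7, Salmon 1.4.0 and mm10, while the methods of the study describe STAR, featureCounts and DESeq. The annotation and the choice of genes are not given in the sources used here. Libraries were polyA-selected and strand-specific. Groups follow the labels, and 0 columns were left unused.

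The 11194 genes that reached 1 TPM in 2 or more of the 12 libraries were tested on log2(TPM + 1), which understates changes of low genes, with limma 3.58.1 in R 4.3.3, using 1 mean per group over all libraries, a variance trend and Benjamini-Hochberg adjustment within each of 11 comparisons. This stands in for a count model, which TPM does not allow. A gene was called when its adjusted p was under 0.05 and it changed by 1 or more on the log2 scale. The code was tested on simulated data. The members, lists and rules were chosen with earlier results of these data known. All members and Camkk2 were named, genes of lists when called or among the 2 largest changes of their list, and genes most like a member by Pearson r. The result of 1 listed gene is not reported here. Coordinates are from GENCODE vM21 on GRCm38, in which 13544 symbols were found, and older symbols were matched through RefSeq synonyms. Alternatives were a pseudocount of 0.1, no filter, median-of-ratios scaling, only the groups compared, a replicate block, a log2 limit of 2 and leaving out libraries.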

Additional observations from a re-analysis of the deposited data

Results flagged for a closer look

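Il1b, the IL-1β precursor gene of the inflammasome list, responded differently to stiffening in the 2 genotypes by the test of that difference. Its interaction of genotype with stiffness was 2.56 ± 0.49 on the log2(TPM + 1) scale (limma, adjusted p = 0.0497, 12 libraries), and its call was lost without the 3 libraries whose Camkk2 level went against the label (2.30 ± 0.63, adjusted p = 0.90). It stood at 14.5 and 17.4 TPM in WT soft, 0.961 and 2.87 TPM in WT stiff, 9.53 and 17.2 TPM in KO soft and 10.2 and 15.0 TPM in KO stiff.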

How the results depend on the processing

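The counts of called members rest on 2 libraries per group and few of them stood under every alternative. With IL-4 in WT, 2 members were called, but 1 with a pseudocount of 0.1, 0 with the 3 libraries at odds with their label left out, and 0 to 1 with single libraries left out. With IL-4 in KO, 1 was called, and 0 with a pseudocount of 0.1, without those 3 libraries or with any single library left out. With stiffening in WT, 2 were called, but 0 when only the groups compared were fitted, 1 without the 3 libraries and 1 to 2 with single libraries left out. For KO against WT in the stiff gel, 2 were called, but 1 with a pseudocount of 0.1, 0 with only the groups compared, 0 without the 3 libraries and 0 to 2 with single libraries left out. Averaged over the genotypes, IL-4 gave 2 calls, 1 with no filter on low values and 1 to 3 with single libraries left out. The averaged stiffness effect gave 1 call, and 0 with a pseudocount of 0.1, median-of-ratios scaling, only the groups compared or the 3 libraries left out, and 0 to 1 with single libraries left out. A log2 limit of 2 left 0 calls in each of these 6 comparisons. With only the groups compared, 0 of all genes were called with stiffening in WT and 0 for KO against WT in the stiff gel. The 0 members called there therefore say nothing of the members. Without the 3 libraries, fewer of all genes were called in each of these 6 comparisons as well. In the interaction of genotype with stiffness, the calls moved when single libraries were left out, for the members and over all genes. The replicate numbers share no stated origin, and the within-group deviations of same-numbered libraries correlated at -0.05 to 0.31, so the numbers were not taken as pairs. The fit with the replicate block gave 1 call in the interaction of genotype with stiffness, 0 in the averaged stiffness effect and 3 with stiffening in WT, and kept the other counts. No called log2 fold change changed sign under any alternative. The cause of these differences was not tested, and the fits with libraries left out also hold fewer libraries. With a Spearman correlation, 2 of the 5 genes most like Ifi202b were the same, and 4 with a pseudocount of 0.1. Without read counts, the precision of low members such as Ifi205, Pydc3 and Pydc4 cannot be given.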
